A study of Bos taurus with 20 samples.

Results

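The first day of serum withdrawal was examined in muscle satellite cells of Belgian Blue cattle. It was taken as 4 libraries harvested after 24 h in differentiation medium with 2% fetal bovine serum against 4 libraries harvested at 0 h, from growth medium with 20% serum. These 8 libraries were chosen by their labelled sampling time out of 20 libraries, which run to 96 h over 5 time points. Replicates A and B of each time point were labelled batch 1 and replicates C and D batch 2. All groups came from the same breed and were grown on collagen-coated flasks before the switch, and the 0 h cells had seen no low serum. The series describes the replicates as biological, and the labels do not say whether they came from different animals. Expression was measured by sequencing of polyA RNA. Every 24 h difference is a difference between cells before and after the change of medium and 1 further day in culture, and these cannot be told apart.

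Satellite cells are the stem cells that repair skeletal muscle. In rich serum they divide as myoblasts. When serum is lowered, most leave the cell cycle, switch on muscle transcription factors of the MyoD family, and then align and fuse into myotubes that build the contractile apparatus. Genes of cell division are commonly shut off and genes of the contractile apparatus switched on in such cultures, the former early and many of the latter late.

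The deposited table names genes by Ensembl cattle identifiers, and 0 of them could be matched to a symbol here. The labelled cell type was therefore not checked against its markers, lists of muscle, cell cycle or other cell type genes were not tested, and no sequences are shown. The first day is described instead by how many genes changed, how far, from which starting level and with which later course. Values are given as CPM, a gene's counts scaled to a fixed library total, on library sizes scaled by the trimmed mean of M-values (TMM). In bulk RNA, a change in the share of cells that express a gene and a change in the level per cell cannot be told apart.

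Total counts at 0 h were 32216066, 41998509, 25684374 and 23955980 in replicates A to D. At 24 h they were 26749156, 25404328, 24911227 and 26770237. The 14636 tested genes covered 99.967% or more of each library's counts. No pair of replicates agreed within sampling noise: the chi-square per degree of freedom between replicates ranged from 8.66 to 22.5 at 0 h and from 3.78 to 21.4 at 24 h, where 1 is expected from sampling alone. The lowest value belonged to replicates A and B at 24 h, the closest pair in the comparison.

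Across the tested genes, 9683 (66.2%) passed the test between 24 h and 0 h (edgeR quasi-likelihood F-test, Benjamini-Hochberg adjusted p under 0.05). Of all tested genes 31.7% rose and 34.5% fell. For 56.9% of the tested genes, all 4 libraries of one time point lay above all 4 of the other. The named genes below were the first in each direction by fold change among genes of at least 10 CPM over the 8 libraries without overlap, so their separation was required by the rule. They are given to show the scale of the largest moves among genes of that level. Some genes under it changed further. On the log2 scale ENSBTAG00000031346 was at 6.78 and ENSBTAG00000033166 at -5.67.

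ENSBTAG00000006563 rose most. Its level was 0.366, 0.898, 0.502 and 0.732 CPM in replicates A to D at 0 h and 38.8, 43.3, 48.9 and 38.1 CPM at 24 h. All 4 libraries at 24 h were far above all 4 at 0 h, and the rise was 6.04 ± 0.145 on the log2 scale (standard error, edgeR adjusted p = 3.77e-19). Its mean then climbed from 42.3 ± 4.99 CPM at 24 h to 205 ± 13.6 CPM at 48 h and stood at 228 ± 6.72 CPM at 96 h (SD, n = 4 each). By mean CPM it moved from rank 12913 of the tested genes at 0 h to rank 4493 at 24 h and rank 934 at 96 h.

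ENSBTAG00000004848 rose by nearly as much on the log2 scale but varied more between replicates. It was at 0.197, 0.278, 0.335 and 0.549 CPM at 0 h and at 22.2, 20.0, 29.0 and 13.1 CPM at 24 h in replicates A to D. Replicate C was the highest at 24 h and replicate D, of the same batch, the lowest, yet the groups did not overlap. The log2 change was 6.01 ± 0.407 (standard error, edgeR adjusted p = 1.11e-09). Unlike the first gene it had a mean at 48 h close to that at 24 h, 25.8 ± 6.71 against 21.1 ± 6.56 CPM, and a lower one of 14.2 ± 4.87 CPM at 96 h (SD, n = 4 each).

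ENSBTAG00000011420 fell most. Levels of 62.5, 63.8, 52.9 and 51.8 CPM at 0 h were followed by 1.92, 1.98, 1.43 and 1.83 CPM at 24 h. Batch 1 was above batch 2 at 0 h, and at 24 h no library exceeded 1.98 CPM. The log2 change was -5.01 ± 0.107 (standard error, edgeR adjusted p = 1.21e-20). Its mean was 0.467 ± 0.109 CPM at 48 h and ended at 0.427 ± 0.107 CPM at 96 h (SD, n = 4 each).

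ENSBTAG00000053073 had the next largest fall among them, from 22.0, 25.5, 21 and 19.2 CPM at 0 h to 0.725, 0.594, 0.646 and 0.788 CPM at 24 h. The replicates of each time point lay close together, and the log2 change was -4.98 ± 0.152 (standard error, edgeR adjusted p = 2.7e-18). Both falling genes were chosen for a large fall by 24 h, so their early loss is no finding. The rising genes differed in course. At 24 h ENSBTAG00000006563 was still far below its later level, while ENSBTAG00000004848, at a mean of 21.1 CPM, was above its 96 h mean of 14.2 CPM.

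**Figure D1:**
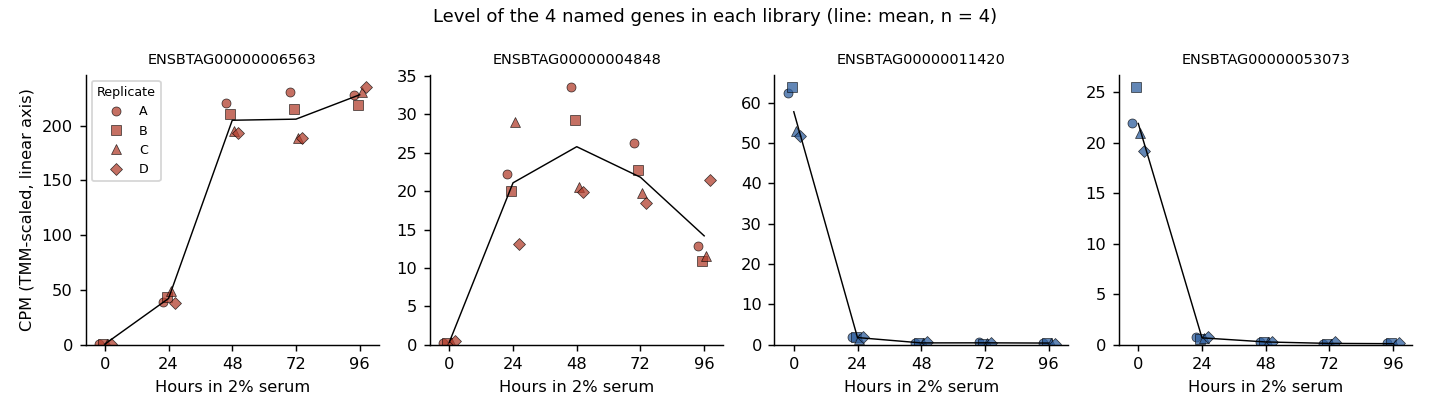
Level of the 4 named genes in every library of the time course, in CPM on a linear axis against hours in 2% serum; markers are replicates A to D and the line joins the means of 4 libraries. The 2 rising genes stand at 38.1 to 48.9 and 13.1 to 29.0 CPM at 24 h, and the 2 falling genes are at or below 1.98 CPM from 24 h on.

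Over all tested genes, falls were more numerous and smaller, and rises fewer but larger, although the order of the numbers depended on the setting. With library sizes alone 5255 genes rose and 4254 fell, and in a fit of the 8 libraries alone 4598 rose and 4350 fell; the excess of rises of at least 2-fold was present in both, with 1990 against 688 and 1665 against 704. The median change was 0.77 on the log2 scale among the genes that rose and -0.48 among those that fell. The larger median of rises lay in genes of low level at 0 h. Under 1 CPM the medians were 2.04 and -1.24, and at 1 to 10 CPM 0.847 and -0.705. Above that they were of like size, 0.439 and -0.425 at 10 to 100 CPM and 0.393 and -0.421 at 100 to 1000 CPM. These classes use the 0 h libraries that also enter the change. Of the 5047 genes that fell, 1412 did so by less than 1.25-fold, 1631 by 1.25 to 1.5-fold and 1217 by 1.5 to 2-fold, so that 15.6% of them reached 2-fold. Of the 4636 that rose, 39.9% reached 2-fold.

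The excess of rises began at 2-fold and widened with size. Between 2 and 4-fold, 993 genes rose and 597 fell. Between 4 and 8-fold the numbers were 425 and 112, between 8 and 16-fold 220 and 50, and at 16-fold or more 213 and 28. In all, 1851 genes (12.6% of those tested) rose at least 2-fold and 787 (5.38%) fell as much. At the tails, the 1st percentile of all tested genes was -2.28 and the 99th was 4.53 on the log2 scale.

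Part of this excess depended on which genes entered the test, since a gene had to reach about 0.374 CPM in any 4 of the 20 libraries. Of the 1851 with a rise of 2-fold or more, 1077 were over that level in all 4 libraries at 0 h, and the others entered at least in part through later libraries. Of the 787 that fell at least 2-fold, 765 were over it at 0 h. With genes limited to those with at least 10 counts in every 0 h library, 1169 rose and 723 fell at least 2-fold, so rises still outnumbered falls but by less.

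**Figure D2:**
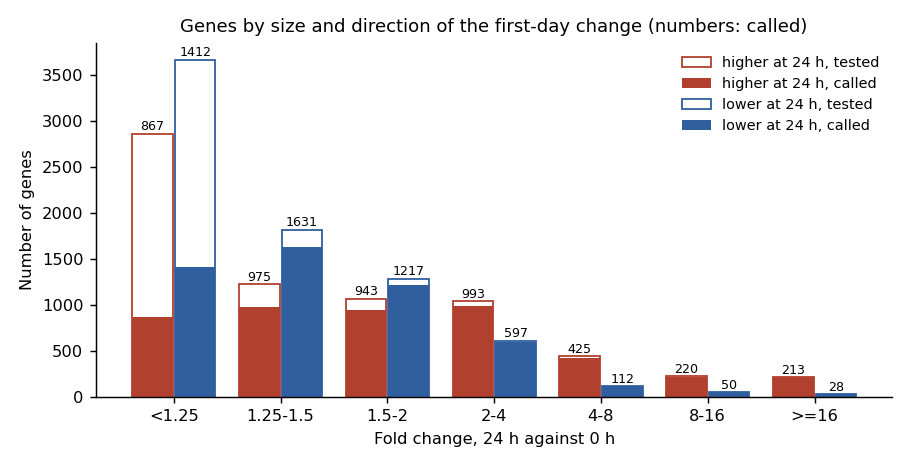
Number of genes by size and direction of the change from 0 h to 24 h; open bars are all tested genes, filled bars those that passed the edgeR test, and the printed numbers count the filled part. Falls outnumber rises in each class under 2-fold and rises outnumber falls in each class from 2-fold up, ending at 213 against 28.

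Starting abundance separated the large rises from the large falls. Genes that rose at least 16-fold had a median of 0.162 CPM at 0 h and those that rose 2 to 4-fold one of 2.55 CPM, while rises of less than 1.25-fold came from genes at 36.5 CPM. Falls of 2 to 4-fold had a median start of 16.5 CPM and falls of at least 16-fold one of 4.11 CPM. These medians use the 0 h libraries that also enter the change, and a gene can only be seen to fall far if it starts well above 0.

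To free the starting level from the change, genes were placed in classes by their 0 h level in one batch and the change was measured in the other batch. Here changes are differences of mean log2 CPM with a prior count of 2, which shrinks those of low genes, and no test was applied. Among the 2244 genes under 1 CPM in batch 1, 39.9% were higher by 2-fold or more at 24 h in batch 2 and 5.30% lower by as much. Among the 3483 genes at 1 to 10 CPM the shares were 14.1% and 7.26%. In the largest class, the 6890 genes at 10 to 100 CPM, they were 4.35% and 3.82%. For the 1949 genes at 100 to 1000 CPM the order turned, with 2.92% higher and 5.59% lower, and of the 70 genes at 1000 CPM or more 1 was 2-fold higher and 13 were 2-fold lower.

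The exchange of the batches gave the same order of the first 4 classes. With classes from batch 2 and changes in batch 1, the share at least 2-fold higher was 40.1% under 1 CPM, 16.5% at 1 to 10 CPM, 4.94% at 10 to 100 CPM and 3.04% at 100 to 1000 CPM, against 12.7% over all genes. Of 63 genes at 1000 CPM or more, 2 were at least 2-fold higher and 14 lower. The median change went from 0.69 under 1 CPM through 0.07, -0.07 and -0.17 to -0.25 at 1000 CPM or more in batch 2, and from 0.67 to -0.34 in batch 1.

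Genes with few counts at 0 h contributed to the lowest class. Of the 2244 genes under 1 CPM in batch 1, 1168 had at least 10 counts in both 0 h libraries of that batch, and of these 26.5% were at least 2-fold higher and 9.16% lower in batch 2. Among the other 1076, 54.5% were higher and 1.12% lower. The surplus of 2-fold rises in the lowest class was thus smaller, but present, among genes already detected at 0 h.

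**Figure D3:**
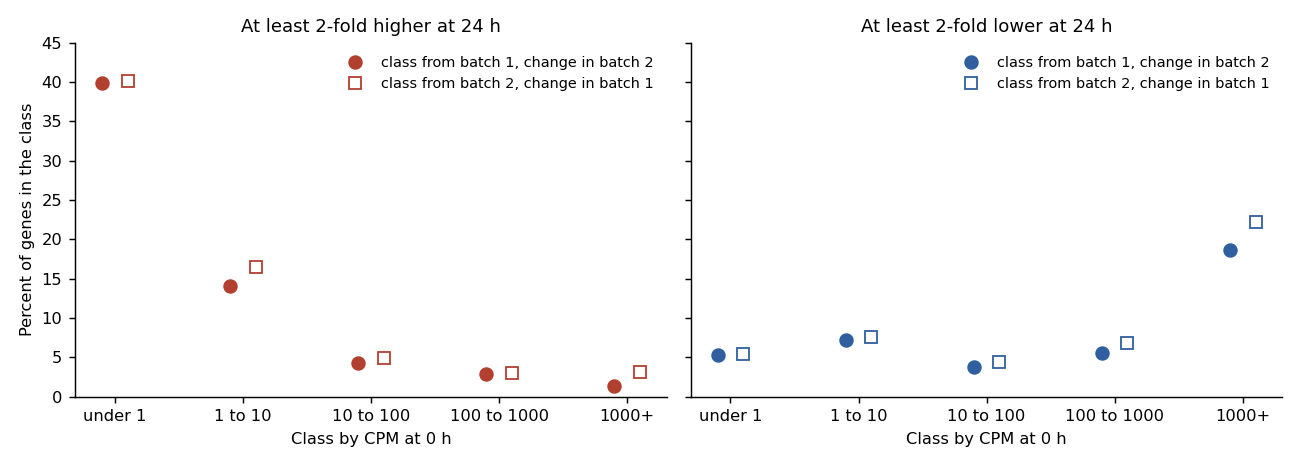
Percent of genes that were at least 2-fold higher (left) or lower (right) at 24 h, by class of CPM at 0 h; filled points take the class from batch 1 and the change from batch 2, open points the reverse. The share higher drops from about 39.9% in the lowest class to 4.35% at 10 to 100 CPM, and the share lower is largest, 18.6% and 22.2%, in the small class at 1000 CPM or more.

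Precision followed abundance. The median standard error of the log2 change was 0.335 for genes under 1 CPM at 0 h, 0.141 at 1 to 10 CPM, 0.0745 at 10 to 100 CPM and 0.0543 at 1000 CPM or more. In these classes, which also differ in the size and direction of change, 59.0% of the genes in the lowest class and 81.8% of the 66 in the highest passed the test, the latter with 5 rises and 49 falls. Between the 2 replicates of one batch, genes at 10 to 100 CPM differed by a median of 0.142 (batch 1) and 0.110 (batch 2) on the log2 scale at 0 h. The values at 24 h were 0.0638 and 0.133, and the median size of the change from 0 h to 24 h in this class was 0.287 in batch 2.

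The counts were spread over more genes at 24 h. The number of genes that together held 50% of the counts was 827, 833, 873 and 873 in replicates A to D at 0 h and 913, 919, 931 and 923 at 24 h. The groups did not overlap (exact permutation test, two-sided, p = 0.0286, the smallest that 4 against 4 libraries allow; adjusted over the 7 measures of this kind, 0.0334). Genes at 1000 CPM or more numbered 70, 73, 65 and 64 at 0 h and 58, 55, 56 and 61 at 24 h, again without overlap (exact permutation p = 0.0286, adjusted 0.0334). The top 100 genes' share did not pass, at 18.9% ± 0.480 against 18.2% ± 0.265 (SD, n = 4 each, exact permutation p = 0.0571, adjusted 0.0571).

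At the other end, more genes were detected. At 1 CPM or more there were 12326, 12447, 12442 and 12430 genes in replicates A to D at 0 h and 12708, 12748, 12745 and 12745 at 24 h (exact permutation p = 0.0286, adjusted 0.0334). The gain averaged 342 genes in batch 1 and 309 in batch 2, where 2 against 2 libraries allow no exact permutation p below 0.333. Replicate A stood below the other 3 at both times. Genes crossing this level mostly stayed on their new side: of 280 genes that went from under 0.5 CPM to at least 1 CPM in batch 1, 72.9% were at 1 CPM or more at 96 h in batch 2. Of 73 that went from at least 1 CPM to under 0.5 CPM, 5.48% were.

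Weighed by counts, the first day moved several times more of the pool than separated replicates, and much of it lay in a limited set of genes. The share of counts that would have to change genes to turn a 0 h library into a 24 h library of its batch ranged from 15.3% to 18% with a median of 16.9% over 8 pairs. Pairs of replicates of one batch differed by 3.65% and 4.77% at 0 h and by 2.11% and 5.61% at 24 h. The 100 genes with the largest gains in batch 1 accounted for 41.1% of all gains in batch 2, and the 100 with the largest losses for 36.6% of all losses. The 1000 leading genes in each direction accounted for 77.1% and 74.6%, and with the batches exchanged for 75.2% and 75.6%. Counts themselves were unevenly spread as well. The 100 most abundant genes held a mean of 18.9% of them at 0 h and 18.2% at 24 h. A mean of 851.5 genes held 50% of the counts at 0 h and 921.5 genes at 24 h.

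Few counts at 0 h belonged to the genes that would be 2-fold higher a day later. The 1866 genes at least 2-fold higher in batch 1 held 3.21% and 3.18% of the counts at 0 h in replicates C and D of batch 2. At 24 h they held 13% and 11.2%, at 48 h 24.6% and 23.9%, and at 96 h 31.5% and 31.1%. The 836 genes that were lower by 2-fold or more in batch 1 went from 8.92% and 8.78% at 0 h to 3.18% and 3.47% at 24 h, 2.31% and 2.40% at 48 h and 2.05% and 2.03% at 96 h. The higher set gained more counts after 24 h than before. Both sets were chosen by their change at 24 h in batch 1. The first-day gain of the higher set and the early loss of the lower set are therefore no finding, and the low 0 h share of the higher set is tied to that choice.

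The first-day change was closely repeated between the batches. Of the 14636 tested genes, 8640 were called in a fit of batch 1 alone and 7376 in one of batch 2 alone. In both lists with the same direction were 6590, 76.3% of the first list and 89.3% of the second, and 0 were called in opposite directions. With lists this long, part of the overlap follows from their length alone. Genes 2 to 4-fold higher in batch 1 had a median of 1.34 there and 1.24 in batch 2, and those at least 16-fold higher 4.74 and 4.66. For genes 2 to 4-fold lower the medians were -1.27 and -1.17. Among changes under 1.25-fold in batch 1, 76.2% of the higher and 74.0% of the lower kept their sign in batch 2, against 98.2% and 99.2% at 2 to 4-fold.

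No gene's first-day change was called different between batches: the edgeR test of the batch by time term called 0 genes (0% of those tested), DESeq2 also called 0, and 706 genes (4.82%) had an unadjusted p under 0.05. Without replicate D at 24 h it called 2 genes, and without a low-count filter 71.

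Later courses were compared between first-day changes of different direction and size. For each size class set in one batch, levels at 96 h were set against those at 24 h in the other batch. A gene was counted as moving on where it went at least 2-fold further in its first-day direction, as coming back where it went at least 2-fold the other way, and as holding in between. Over all genes, 12% were at least 2-fold higher at 96 h than at 24 h in batch 2, 11.8% at least 2-fold lower and 76.2% in between. These shares are the background to those below, and none of them was tested.

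Genes 2-fold higher at 24 h often moved on. Of the 1866 such genes of batch 1, 35.7% moved on in batch 2, 49.7% held and 14.6% came back. For the 1744 such genes of batch 2 measured in batch 1 the shares were 40.9%, 43.9% and 15.2%. Of the 273 that came back in batch 2, 115 were within 1.41-fold of their 0 h level at 96 h. A level at least 2-fold below 0 h at 96 h was seen for 26 of the 1866. Limited to the 1255 genes with at least 10 counts in both 0 h libraries of batch 1, 32% moved on, 53.2% held and 14.7% came back.

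The larger the first-day rise, the more often it was followed by a further one, but larger rises also started lower. Called rises of 16-fold or more had a median of 0.162 CPM at 0 h, under the filter level of about 0.374 CPM. Of all genes under 1 CPM in batch 1, 32.8% went at least 2-fold up after 24 h in batch 2, against 12% of all tested genes. The size classes were not matched for starting level, so size of rise and starting level cannot be told apart here. In batch 2 the share that moved on was 12.9% for genes 1.25 to 1.5-fold higher in batch 1, 21.9% at 1.5 to 2-fold, 29.4% at 2 to 4-fold, 37.9% at 4 to 8-fold, 48.8% at 8 to 16-fold and 65.0% at 16-fold or more. With the batches exchanged the last 4 shares were 35.1%, 40.2%, 57.3% and 69.0%. The share that came back was highest in the middle of the range, 18.6% at 4 to 8-fold and 17.7% at 8 to 16-fold against 12.9% at 2 to 4-fold and 13.6% at 16-fold or more. The median of the 140 genes at 16-fold or more went from 4.66 at 24 h to 6.85 at 48 h on the log2 scale against 0 h, then stood at 6.86 and 6.88 at 72 h and 96 h.

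Genes 2-fold lower at 24 h rarely came back. Of the 836 such genes of batch 1, 34.3% fell at least 2-fold further in batch 2, 59.2% held and 6.46% came back, where 12% of all genes went up as far after 24 h. The 757 genes of batch 2 gave 32.9%, 59.4% and 7.66% in batch 1. Of the 60 that were lower by 8-fold or more in batch 1, 0 came back in batch 2, and of the 58 of batch 2, 4 (6.90%) came back in batch 1. The median of the class 2 to 4-fold lower in batch 2 went from -1.17 at 24 h to -1.70 on the second day and -1.85 on the third, and ended at -1.81.

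Returns among the higher genes were fewer by 48 h than by 72 h or 96 h. Of the 1866 genes, 5.79% were at least 2-fold below their 24 h level by 48 h, 16.9% by 72 h and 14.6% by 96 h in batch 2, and with the batches exchanged 4.82%, 12.7% and 15.2%. Further rises were by contrast about as frequent at 48 h, when 33.3% were at least 2-fold above 24 h, as at 72 h and 96 h, with 33.1% and 35.7%. These shares do not follow the same genes from one time to the next. Over all genes, 13.8% changed at least 2-fold in either direction from 24 h to 48 h in batch 2. By 96 h, 11.8% of all genes were at least 2-fold below their 24 h level there. The share of all genes below it was not taken at 48 h or 72 h. Whether the timing of the returns differed from that of all genes was therefore not tested. Among the 836 lower genes, 21.4% had gone 2-fold further by 48 h and 33.1% by 72 h.

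**Figure D4:**
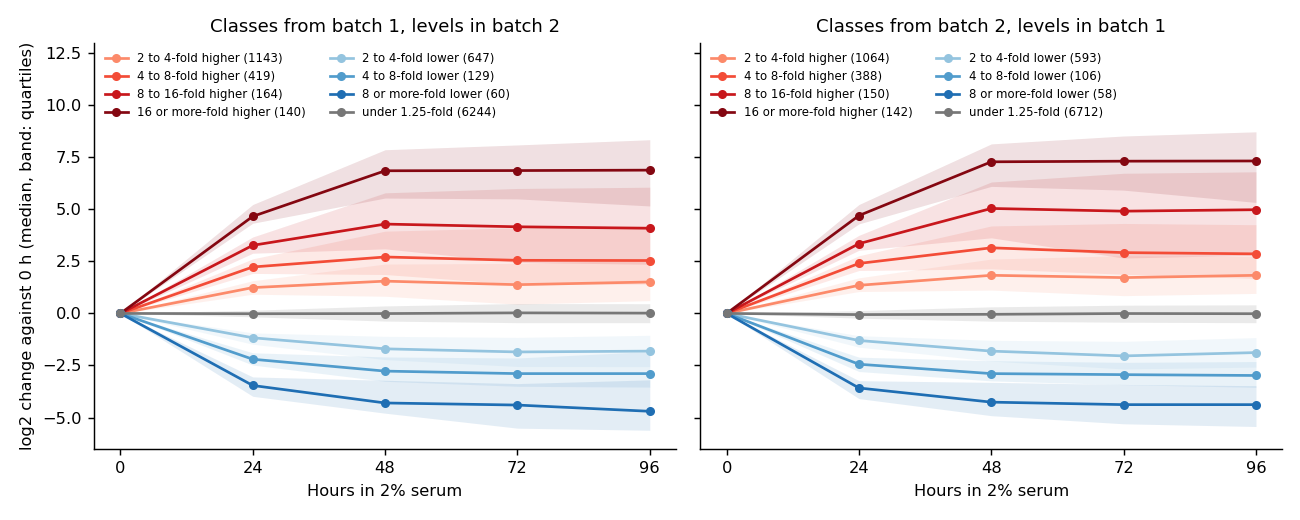
Median log2 change against 0 h by hours in 2% serum for genes grouped by the size of their change at 24 h in one batch, measured in the other batch; bands span the quartiles and numbers in brackets count genes. Each higher class gains most of its later rise by 48 h, the class at 16-fold or more going from 4.66 to 6.85 in batch 2, and the class under 1.25-fold stays near 0.

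Low genes also moved more after 24 h in general, so later courses were set against all genes of the same starting level. Among the 919 genes 2-fold higher in batch 1 that started under 1 CPM, 39.9% moved on in batch 2 and 15.9% came back, where all 2244 genes of that level gave 32.8% and 14.6%. For the 555 that started at 1 to 10 CPM the shares were 31.5% and 15.7%, against 11.5% and 14.4%. The 336 at 10 to 100 CPM gave 31.2% and 10.7%, against 7.23% and 9.70%. The 55 at 100 to 1000 CPM gave 34.5% and 5.45%, against 5.80% and 11% of all genes of that level, and with the batches exchanged 5.08% of 59 came back, against 10.4%. Moving on after a first-day rise was thus above the level of all genes in these 4 classes. Coming back was close to that level up to 100 CPM with classes from batch 1. Exchange of the batches put it somewhat above, at 17% against 14.1% under 1 CPM. At 1 to 10 CPM it was then 15.7% against 13.6%, and at 10 to 100 CPM 11% against 9.2%. At 100 to 1000 CPM it was lower, but it rested on 3 genes whichever batch set the class. The 95% intervals, 1.14% to 15.1% and with the batches exchanged 1.06% to 14.1%, included the share of all genes. These binomial intervals, here and below, take genes as independent, which they are not. The first-day changes are also part of all genes, so the intervals are no test of a difference. In the lowest class 1076 of the 2244 genes did not reach 10 counts in both 0 h libraries of batch 1. Limited to the other 1168 genes, it gave 33.4% and 18.8% for 308 first-day rises, against 18.5% and 17.4% of all 1168. The same limit with the batches exchanged gave 39.4% and 20.2% for 218 rises, against 18% and 16.2% of all 927.

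For first-day falls the share that came back was below the share of all genes that rose as far in each class from 1 to 1000 CPM. It was 4.46% against 11.5% at 1 to 10 CPM, 3.64% against 7.23% at 10 to 100 CPM and 2.22% against 5.80% at 100 to 1000 CPM. With the batches exchanged these shares were 8.20%, 5.26% and 3.70%, against 12.3%, 7.45% and 6.07%. At 100 to 1000 CPM they rested on 3 genes, and on 4 after the exchange. The 95% interval of the former, 0.461% to 6.36%, included the share of all genes. After the exchange the upper limits were 12.3%, 8.67% and 9.21%, which reached or passed the shares of all genes. These differences were not tested. Under 1 CPM the share was 23.5% of 115 against 32.8% of all genes in batch 2, but with at least 10 counts in both 0 h libraries, no such difference was seen in batch 2, where 18.5% of 108 falls came back and 18.5% of all genes rose as far. In batch 1 the values were 10% of 100 falls against 18% of all genes. Among all 115 falls that started under 1 CPM in batch 1, 63.5% had been 2-fold lower again at 24 h in batch 2, against 75.5% to 78.8% in the 3 higher classes, so fewer first-day falls of the lowest class had been repeated at that size.

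Genes that stayed level on the first day mostly stayed level afterwards, as did most of all tested genes. Of the 6244 genes within 1.25-fold in batch 1, 86.6% were at 96 h within 2-fold of their 24 h level in batch 2, 7.14% lay above that range and 6.28% below it. With the batches exchanged, the shares of 6712 genes were 87.9%, 6.60% and 5.54%. Over all genes the share within 2-fold was 76.2% in batch 2 and 76.4% in batch 1. Among all genes at 10 to 100 CPM and at 100 to 1000 CPM it was 83.1% and 83.2% in batch 2. The level genes were not matched for starting level, so small first-day change and starting level cannot be told apart here.

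Looking back from 96 h, most of the largest late rises and falls were under way at 24 h. Of the 489 genes whose level in batch 1 had grown 16-fold or more by 96 h, 86.9% had passed 2-fold at 24 h in batch 2, and 5.32% were still within 1.25-fold. Of the 2899 that had grown 2-fold or more by 96 h, 48.4% had passed 2-fold at 24 h and 16.4% were within 1.25-fold. For the 2429 that had dropped as much by 96 h the shares were 25.9% and 19.3%. Of the 56 genes that had dropped 16-fold or more, 100% had passed 2-fold at 24 h, and with the batches exchanged 98.5% of 65. Few had first gone the other way: 12 of the 2899 and 13 of the 2429 were at least 2-fold away from 0 h in the opposite direction at 24 h.

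The first day was the largest of the 4 daily steps when each gene was counted once, and not when each count was. The root mean square log2 change, computed from the product of the changes in both batches so that noise private to a batch drops out on average, was 0.98 from 0 h to 24 h, 0.79 from 24 h to 48 h, 0.42 from 48 h to 72 h and 0.37 from 72 h to 96 h. Within batches the first 2 values were 1.02 and 0.82 in batch 1 and 0.99 and 0.81 in batch 2. The share of counts redistributed within a batch was larger on the second day, 18.7% to 22.9% with a median of 20.6%, than on the first. Neither difference was tested, since both steps share the 24 h libraries.

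Changes of the second day were correlated with those of the first, and changes of the later days hardly were. Across 14636 genes, which are not independent, the change of the first day in batch 1 had a Pearson correlation of 0.41 with the change from 24 h to 48 h in batch 2, of -0.04 with that from 48 h to 72 h and of 0.09 with that from 72 h to 96 h. With the batches exchanged the values were 0.47, 0.04 and -0.02. The points of each correlation share the scaling of all 20 libraries but no library.

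**Figure D5:**
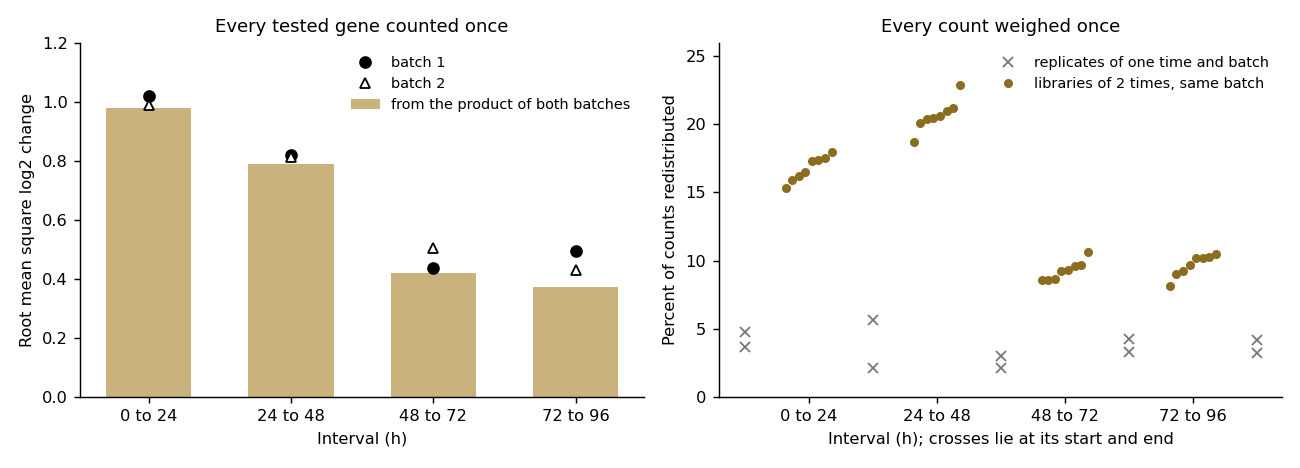
Size of each daily step, with every gene counted once as the root mean square log2 change (left) and with every count weighed once as the percent of counts redistributed between libraries (right); crosses are replicates of one time point and batch. The first step is the largest at left, 0.98 against 0.79, and the second at right, with medians of 16.9% and 20.6%.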

How the data were processed

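The authors deposited raw read counts per gene, whole numbers in 1 table with 27607 genes and 20 library columns, all matched by name. STAR 2.7, featureCounts and the build bosTau9 are named in the submitters' processing notes. Their parameters, strand setting and annotation are not given in sources used here. Per the labels' protocols, a stranded mRNA kit and 75 bp reads were used. Without a stated strand setting, reads of overlapping genes may be shared.

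The analysis used edgeR 4.0.16 in R 4.3.3, with DESeq2 1.42.0 as an alternative. Genes were kept by filterByExpr (minimum count 10, minimum total 15), scaled by TMM and fitted in a robust quasi-likelihood model with time point and batch over all 20 libraries. Calls used a Benjamini-Hochberg adjusted p under 0.05 over 14636 genes. The tests were checked on simulated data. Low genes had the largest standard errors.

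Descriptions by class used mean log2 CPM (prior count 2), with the class set in one batch and the value measured in the other. Named genes were called, non-overlapping genes of at least 10 CPM with the largest fold changes, limited to 2 in each direction because no symbols could be matched. The members and lists were chosen with earlier results of these data known. Same-letter replicates were not taken as pairs. Alternatives covered scaling, filter, batch term, libraries fitted, tool, fold minimum and omission of each library.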

Additional observations from a re-analysis of the deposited data

Results flagged for a closer look

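Among 26 sets of 4 library values checked for 0 h and 24 h, Dixon's test at the 95% level set a library apart in 2, and chance alone does so in about 1 of 20. Both concern the number of genes at 1 CPM or more. At 0 h, replicate A had 12326 genes and the others between 12430 and 12447. At 24 h, replicate A had 12708 genes and the others between 12745 and 12748.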

How the results depend on the processing

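Alternatives marked here as added were chosen after seeing the data. A 2-fold minimum in glmTreat, a stricter question, called 1738 genes, 1263 higher and 475 lower. The added limit to genes with at least 10 counts in every 0 h library, which tests fewer genes, gave 1169 at least 2-fold higher. Library sizes alone raised the share of higher calls from 47.9% to 55.3%. The batch by time test called 71 genes without the low-count filter and 0 to 2 without single libraries. Without single libraries the first-day test called 9195 to 9633 genes. The cause of these differences in the batch by time test was not tested.

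The 10 most abundant genes of a library held less of its counts at 24 h, by -0.577 percentage points. The difference was -0.659 to -0.479 without single libraries and lost its call (exact permutation p = 0.0571) without replicate C or D at 24 h. Batches alone, too small for a call, gave -0.657 and -0.496, and 342 and 309 for the gain in genes at 1 CPM, which was 297 to 337 without single libraries.

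The share of genes changed at least 2-fold was 35.7% rather than 45.2% under 1 CPM with at least 10 counts in both 0 h libraries (added), and with batches exchanged 24.1% rather than 21.3% at 1 to 10 CPM and 9.34% rather than 8.17% at 10 to 100 CPM. Of 2-fold higher genes, 40.9% moved on and 43.9% held with batches exchanged, 32% and 53.2% with the added count limit, and 45.6% and 36.9% at 4-fold, where 17.4% came back. The 4 named genes kept direction and call in each of 19 or 20 alternatives, as their selection for large changes made likely.

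With a replicate block in place of batch, 9590 genes were called and no count moved by over 1.5 times. Same-letter libraries of 0 h and 24 h had correlated deviations of 0.0762 to 0.504, over 0.1 in 3 of 4 pairs, and for 2 of the 4 libraries at 0 h the own letter correlated best. The gene list tests were not run, since no identifier had a symbol.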
